A study of Mus musculus with 18 samples.

Results

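The subunits of the transcription factor NF-kB and genes that restrain or modify it were followed at 3 ages in mouse adipocytes of the bone marrow and of the epididymal fat pad. The 10 genes were chosen by name, with earlier results of these data known. They are the 5 subunit genes Nfkb1, Nfkb2, Rel, Rela and Relb and 5 genes listed as inhibitors, Nfkbia, Nfkbie, Nfkbiz, Tnfaip3 and Bcl3. Of the latter, Nfkbiz and Bcl3 can also help NF-kB to drive genes. A member was read from an array probe set that names this gene alone, taking the brightest over all arrays if there were several. By that rule 9 of the 10 genes, among 19938 genes with such a probe set, had a value, each from 1 probe set, and Nfkb1 was not analysed here.

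Both cell types came from male C57BL/6J mice that ate standard chow and were 6, 14 or 18 months old, and no group carried a mutation or received a drug. Bone marrow adipocytes were floated from the flushed marrow of femurs and tibias after lysis of red cells. Epididymal adipocytes, which the sample labels call peripheral, were floated from the epididymal fat pad after collagenase digestion. Each of the 6 groups had 6 to 10 animals, whose RNA was combined into 3 pools, with an Affymetrix gene array for each pool. The spread between arrays is thus that of pools and not of single mice. The same animals gave both preparations, but no source used here says which arrays share a pool, so the fit treats the cell types as independent. Collagenase was named for the epididymal cells alone, so digestion and cell type cannot be told apart. Neither preparation was sorted, and in such bulk RNA fewer cells of a type cannot be told apart from less RNA per cell.

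NF-kB is a dimer of Rel family proteins that waits in the cytoplasm, bound by IkB proteins. Signals from cytokine or Toll-like receptors activate the IkB kinases, IkB is degraded, and the dimer enters the nucleus and turns on genes of inflammation and survival. Among the genes it turns on are its own inhibitors. IkBalpha (Nfkbia) and IkBepsilon (Nfkbie) recapture the dimer, A20 (Tnfaip3) edits ubiquitin chains upstream of the kinases, and IkBzeta (Nfkbiz) and Bcl3 bind the dimers within the nucleus and change which genes they drive. In fat, the pathway is best known from the inflammation of obesity.

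Promoter windows from 250 bases before to 50 bases after an annotated start were read from RefSeq (GRCm38.p6) for 7 of the 10 genes, some with more than 1 start. Of the 10 windows of these genes, 8 held the decameric kB consensus on either strand, against 8.46% of all 32851 windows of that length. The letters GGAAANNCC, searched on both strands and partly overlapping the decamer, were in 7 of the 10 windows and in 5.82% of all windows. Both motifs were chosen after these promoters had been read, and 2 of the Nfkb2 windows overlap, so the counts are a description. The Rela window and the second Tnfaip3 window (chr10:19011914-19012213, - strand) held neither motif and are not printed. A window of each of 4 members is printed 5′ to 3′ on the strand of the gene, with the letters that match either motif in capitals. Nfkbia and Tnfaip3 are shown since their levels ran most closely together, and Rel and Nfkbie since they were the members called higher in bone marrow at each age. A match describes letters and not binding.
Nfkbia (chr12:55492598-55492897, - strand): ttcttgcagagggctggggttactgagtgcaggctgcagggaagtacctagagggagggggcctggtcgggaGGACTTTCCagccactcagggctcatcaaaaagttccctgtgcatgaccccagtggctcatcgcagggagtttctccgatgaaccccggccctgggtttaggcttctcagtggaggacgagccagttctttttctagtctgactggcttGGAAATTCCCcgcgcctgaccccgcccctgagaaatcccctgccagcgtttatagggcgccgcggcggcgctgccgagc
Tnfaip3 (chr10:19015361-19015660, - strand): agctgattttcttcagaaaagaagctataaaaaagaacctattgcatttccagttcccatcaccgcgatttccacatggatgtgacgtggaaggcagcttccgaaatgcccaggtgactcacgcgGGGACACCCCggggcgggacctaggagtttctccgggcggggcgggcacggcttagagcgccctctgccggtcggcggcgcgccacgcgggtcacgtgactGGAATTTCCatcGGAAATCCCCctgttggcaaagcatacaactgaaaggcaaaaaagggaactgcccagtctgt
Rel (chr11:23770920-23771219, - strand): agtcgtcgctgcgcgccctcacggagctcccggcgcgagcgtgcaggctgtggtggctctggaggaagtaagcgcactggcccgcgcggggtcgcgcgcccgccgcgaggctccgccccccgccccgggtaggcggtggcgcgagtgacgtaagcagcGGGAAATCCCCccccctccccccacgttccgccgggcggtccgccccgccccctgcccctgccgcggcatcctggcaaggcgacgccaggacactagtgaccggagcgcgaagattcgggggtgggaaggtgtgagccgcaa
Nfkbie (chr17:45555450-45555749, + strand): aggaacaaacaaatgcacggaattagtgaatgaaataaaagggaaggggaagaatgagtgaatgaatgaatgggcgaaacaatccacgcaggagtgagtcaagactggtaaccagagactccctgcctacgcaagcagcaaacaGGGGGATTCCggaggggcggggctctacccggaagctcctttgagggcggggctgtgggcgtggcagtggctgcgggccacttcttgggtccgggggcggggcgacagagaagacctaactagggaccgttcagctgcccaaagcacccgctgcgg

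The deposited values are on a log2 scale and ran from 1.90 to 14.64, with array medians between 5.33 and 5.65. Among the 3 arrays of a group, probe sets had a median standard deviation of 0.22 in bone marrow at 6 months and 0.097 to 0.14 in the other groups. All 9 measured adipocyte markers, such as leptin (Lep), were lower in bone marrow adipocytes at every age. The mean level of these markers on an array was 6.34 to 7.03 in bone marrow, against 11.89 to 12.39 in epididymal adipocytes. All 10 neutrophil markers were higher in bone marrow, where their mean was 11.46 to 12.15, against 4.85 to 8.53 in epididymal adipocytes. The share of the NF-kB values that belongs to adipocytes rather than to the blood cells in the preparations was not tested. The name bone marrow adipocytes is that of the sample labels. Here it stands for the whole preparation with its blood cells, and not for adipocytes alone.

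**Figure D1:**
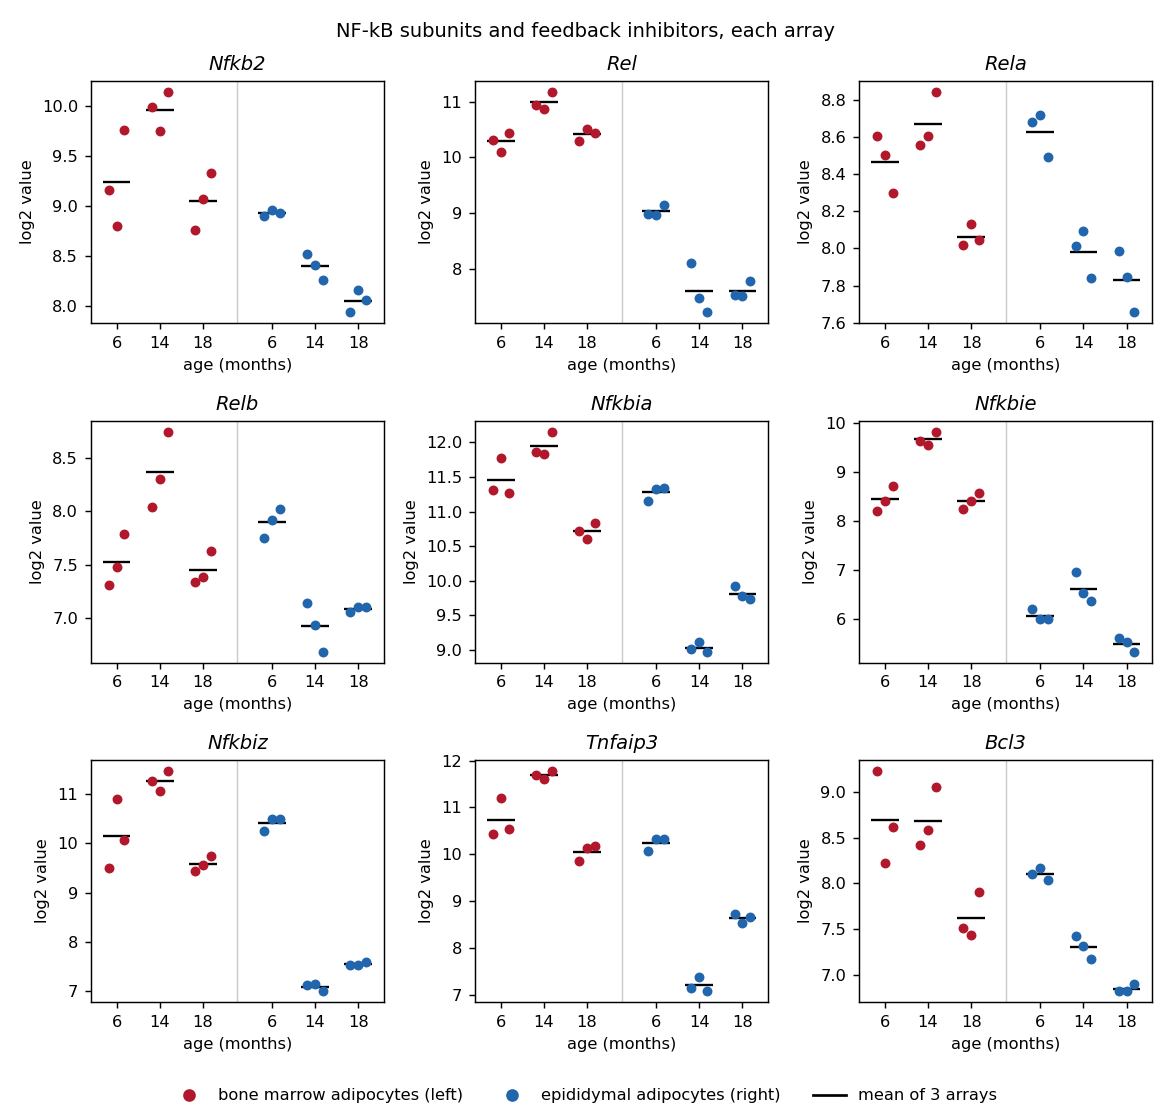
Log2 value (y axis, own scale in each panel) of the 9 measured genes on each array, by age in months (x axis), with bone marrow adipocytes left of the line and epididymal adipocytes right of it. Points are single arrays of pooled RNA and black bars are means of 3, and the highest mean is that of 14-month bone marrow in every panel but that of Bcl3. The epididymal points lie lower at 14 and 18 than at 6 months, except for Nfkbie at 14 months.

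Among the subunits, Rel (the c-Rel protein, best known from lymphocytes) varied most between the groups. Its log2 values in bone marrow were 10.31, 10.10 and 10.45 at 6 months, 10.94, 10.86 and 11.17 at 14 months, and 10.30, 10.51 and 10.44 at 18 months. In epididymal adipocytes they were 8.99, 8.97 and 9.14 at 6 months, 8.11, 7.48 and 7.23 at 14 months, and 7.53, 7.50 and 7.79 at 18 months. Every bone marrow array lay above every epididymal array, and the epididymal arrays of 14 and 18 months overlapped with each other and lay below those of 6 months. From lowest to highest, the group means ran epididymal 14, 18 and 6 months, then bone marrow 6, 18 and 14 months, and the neighbours at the low end as well as bone marrow of 6 and 18 months overlapped.

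Nfkb2 encodes the precursor of p52, the subunit of the slower, non-canonical branch of the pathway. Its level averaged 9.24 ± 0.49, 9.96 ± 0.20 and 9.05 ± 0.29 in bone marrow at 6, 14 and 18 months, and 8.93 ± 0.03, 8.40 ± 0.14 and 8.05 ± 0.11 in epididymal adipocytes (SD, n = 3 each). The epididymal arrays of the 3 ages did not overlap, while the 6-month bone marrow arrays reached into the ranges of both older bone marrow groups. Relb, the usual partner of p52, averaged 7.53 ± 0.24, 8.36 ± 0.35 and 7.45 ± 0.16 in bone marrow, against 7.90 ± 0.14, 6.93 ± 0.23 and 7.09 ± 0.03 in epididymal adipocytes. The 14-month groups of the 2 cell types thus held the highest and the lowest Relb means. Rela, which encodes the p65 subunit of the classical dimer, averaged 8.47 ± 0.16, 8.67 ± 0.15 and 8.06 ± 0.06 in bone marrow, against 8.63 ± 0.12, 7.98 ± 0.13 and 7.83 ± 0.16 in epididymal adipocytes. It had the smallest range of all measured members, 1.19 over the 18 arrays, and epididymal arrays of 6 months overlapped with bone marrow arrays of 6 and 14 months.

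Nfkbia, whose protein IkBalpha is rebuilt within minutes of NF-kB activation, had log2 values in bone marrow of 11.31, 11.77 and 11.27 at 6 months, 11.87, 11.84 and 12.15 at 14 months, and 10.72, 10.60 and 10.84 at 18 months. In epididymal adipocytes the values were 11.16, 11.33 and 11.35 at 6 months, 9.01, 9.12 and 8.98 at 14 months, and 9.92, 9.77 and 9.74 at 18 months. At 6 months the cell types overlapped, and at both older ages they were apart. Tnfaip3 (A20) gave 10.42, 11.21 and 10.53 in bone marrow at 6 months, 11.69, 11.60 and 11.77 at 14 months, and 9.85, 10.14 and 10.17 at 18 months. Its epididymal values were 10.06, 10.33 and 10.33 at 6 months, 7.15, 7.38 and 7.08 at 14 months, and 8.72, 8.53 and 8.65 at 18 months. Both genes thus had their lowest values in epididymal adipocytes of 14 months, intermediate ones at 18 months, and no overlap between any of the 3 epididymal ages.

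Nfkbiz, itself induced by NF-kB and needed for a later wave of its targets, showed the widest epididymal range. Its bone marrow values were 9.51, 10.91 and 10.07 at 6 months, 11.27, 11.07 and 11.47 at 14 months, and 9.45, 9.56 and 9.75 at 18 months. Epididymal adipocytes had 10.26, 10.49 and 10.50 at 6 months, 7.13, 7.14 and 7.00 at 14 months, and 7.53, 7.53 and 7.60 at 18 months. The 6-month epididymal arrays lay among those of 6-month bone marrow, and the older epididymal arrays lay below all others. The bone marrow array of 6 months with the highest Nfkbiz value also had the highest Nfkbia and Tnfaip3 values of its group. It had the lowest Nfkb2, Rel and Bcl3 values of that group.

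Nfkbie followed another pattern. In bone marrow its values were 8.20, 8.40 and 8.70 at 6 months, 9.62, 9.55 and 9.82 at 14 months, and 8.24, 8.40 and 8.57 at 18 months. Those of epididymal adipocytes were 6.20, 6.01 and 6.00 at 6 months, 6.95, 6.53 and 6.37 at 14 months, and 5.61, 5.52 and 5.34 at 18 months. All bone marrow arrays lay above all epididymal ones, and in both cell types the 14-month group was the highest. Bcl3, a partner of p50 and p52 homodimers, averaged 8.69 ± 0.50, 8.68 ± 0.32 and 7.62 ± 0.25 in bone marrow, against 8.11 ± 0.07, 7.31 ± 0.12 and 6.86 ± 0.05 in epididymal adipocytes at 6, 14 and 18 months (SD, n = 3 each). Within each age its bone marrow arrays lay above the epididymal ones.

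The first comparison asked how bone marrow adipocytes differ from epididymal adipocytes when the 3 ages are averaged. Of the 9 genes, 5 were called higher in bone marrow, and none was called lower. A call between cell types needed an adjusted p under 0.05 in limma's moderated test, with Benjamini-Hochberg adjustment over 23410 probe sets, and at least 2-fold. By this rule 10.2% of the probe sets were higher and 11.6% lower in bone marrow. Nfkbie differed most, by 2.78 on the log2 scale (standard error 0.09, 6.85-fold, adjusted p = 1.28e-15), followed by Rel with 2.48 (standard error 0.10, 5.60-fold, adjusted p = 3.07e-14). Tnfaip3 (2.13), Nfkbiz (1.98) and Nfkbia (1.33) were the other called genes. Nfkb2 (0.96) and Bcl3 (0.91) fell just short of 2-fold, with 95% confidence intervals of 0.73 to 1.19 and 0.67 to 1.15. Relb differed by 0.48 and Rela by 0.25, and on a scale that sets ribosomal protein genes equal between the cell types these 2 turned to -0.25 and -0.47. That scale moved the median of all probe sets to -0.75, and the median of the 9 genes was 1.33 on the deposited scale and 0.61 on that one.

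At single ages the number of genes called higher was 2 at 6 months, 8 at 14 months and 5 at 18 months, and none was lower. The share of all probe sets called higher was 11.4% at 6 months, 9.91% at 14 months and 10.9% at 18 months, and called lower 11.8%, 11.5% and 12.9%. At 6 months the called genes were Nfkbie (2.37, adjusted p = 1.63e-10) and Rel (1.25, adjusted p = 4.40e-06). For Nfkbia the 6-month difference was 0.17 with a 95% confidence interval from -0.11 to 0.45, and for Nfkbiz it was -0.26, from -0.73 to 0.21. Scaled to ribosomal protein genes, Rel was no longer called at 6 months (0.34), Nfkb2, Nfkbia, Tnfaip3 and Bcl3 turned to values below 0, and Nfkbiz, Rela and Relb were called lower in bone marrow (-1.17, -1.07 and -1.28). At 14 months Tnfaip3 was 22.3-fold higher in bone marrow (log2 difference 4.48, standard error 0.17, adjusted p = 5.99e-14) and Nfkbiz 18.1-fold (4.18, standard error 0.22, adjusted p = 1.17e-11). Rel was 10.5-fold, Nfkbie 8.25-fold and Nfkbia 7.56-fold higher at that age, Nfkb2, Relb and Bcl3 between 2.59-fold and 2.96-fold, and Rela, at 1.61-fold, was the gene not called. At 18 months Nfkbie (2.92), Rel (2.81), Nfkbiz (2.03), Tnfaip3 (1.42) and Nfkb2 (1.00) were called, with Nfkb2 at the limit and lost without bone marrow replicate 2 or 3 or epididymal replicate 1 of that age, after median centring (0.82) or on the ribosomal protein scale (0.34). That scale left 5 genes called at 14 months and 3 at 18 months, and the share of all probe sets called on it was not counted.

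**Figure D2:**
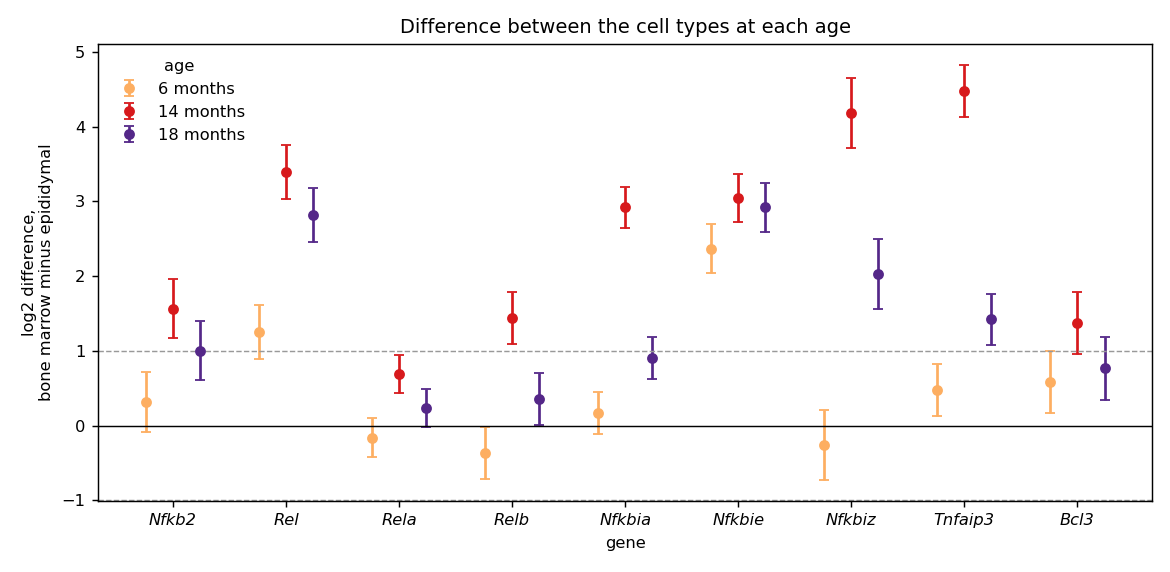
Log2 difference between bone marrow and epididymal adipocytes (y axis) for each gene (x axis) at 6, 14 and 18 months, with 95% confidence intervals from the limma fit and dashed lines at 2-fold. The 14-month points are the highest for each gene, up to 4.48 for Tnfaip3, and only Rel and Nfkbie lie above the upper dashed line at 6 months, where on a ribosomal protein scale Rel drops to 0.34.

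Within epididymal adipocytes the comparison with age asked which members changed after 6 months. At 14 months 7 of the 9 genes fell and Nfkbie rose, while 7.51% of all probe sets were lower and 10.2% higher (adjusted p under 0.05, with no fold limit). Nfkbiz was 10.0-fold lower at 14 than at 6 months (log2 change -3.33, standard error 0.22, adjusted p = 5.72e-09), Tnfaip3 8.20-fold lower (-3.04, adjusted p = 4.98e-10) and Nfkbia 4.73-fold lower (-2.24, adjusted p = 1.30e-09). The subunits changed less, with Rel at -1.43, Relb at -0.97 and Rela at -0.65, and Bcl3 was at -0.80. Nfkb2 had -0.53 (95% confidence interval -0.93 to -0.13, adjusted p = 0.0609). The rise of Nfkbie by 0.55 (standard error 0.15, adjusted p = 0.0178) did not pass after median centring (0.47), on the ribosomal protein scale (0.27) or without 14-month replicate 1 (0.38), 6-month replicate 2 (0.52) or 6-month replicate 3 (0.51).

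At 18 months all 9 genes were lower than at 6 months, against 8.01% of all probe sets lower and 8.22% higher. Nfkbiz again had the largest change, -2.86 (standard error 0.22, 7.27-fold, adjusted p = 9.92e-08), followed by Tnfaip3 with -1.61 and Nfkbia with -1.47. Rel was at -1.42 and Bcl3 at -1.25, and the other genes lay between -0.88 and -0.58. The last value is that of Nfkbie, which was not called without 18-month replicate 3 or 6-month replicate 1, after median centring (-0.40) or after a repeated quantile normalization (-0.41). Between 18 and 14 months Tnfaip3 rose by 1.43 (standard error 0.17, 2.69-fold, adjusted p = 2.99e-06) and Nfkbia by 0.78 (adjusted p = 2.29e-04), and Nfkbie fell by 1.13 (adjusted p = 2.10e-05). In that comparison 11.7% of the probe sets were higher and 12.5% lower. The difference for Rel was 0.00, with a 95% confidence interval of -0.36 to 0.36. No epididymal arrays of 6 and 14 or of 6 and 18 months overlapped for any of the 9 genes. The share of all probe sets without overlap was not counted, so this only describes the values.

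In bone marrow adipocytes 8 of the 9 genes had their highest mean at 14 months, and Bcl3 had 8.68 at 14 and 8.69 at 6 months. Against 6 months, 7 of 9 genes rose at 14 months and none fell, where 5.08% of the probe sets were higher and 3.58% lower. Nfkbie rose by 1.23 (standard error 0.15, 2.34-fold, adjusted p = 9.35e-05), Nfkbiz by 1.11 (adjusted p = 0.0043), Tnfaip3 by 0.96 and Relb by 0.84. Nfkb2, Rel and Nfkbia rose by 0.50 to 0.72, while Rela (0.20) and Bcl3 (0.00) did not pass. Nfkbia was not called without 6-month replicate 1 or 3 or 14-month replicate 3, with weighted arrays (0.42) or on the ribosomal protein scale (0.53). Nfkb2 was not called without 6-month replicate 1 or 2 or 14-month replicate 1 or 3, or in an unmoderated linear model. Rel was not called without 14-month replicate 3. Arrays of 6 and 14 months overlapped for Nfkb2, Rela and Bcl3. These calls lean on the spread that all groups share in the fit: with the 2 bone marrow groups alone 1 of the 9 genes was called, and without 14-month replicate 3 the count was 4. The share of all probe sets called in these other fits was not counted.

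At 18 months against 6 months 4 genes fell in bone marrow, Bcl3 by 1.07 (standard error 0.20, adjusted p = 0.0035), Nfkbia by 0.73, Tnfaip3 by 0.67 and Rela by 0.40 (adjusted p = 0.0473), and none rose. The Rela call was at the limit: it was lost without any 1 of 13 of the 18 arrays and under 10 of 14 other settings, among them the replicate block (adjusted p = 0.0522), median centring (adjusted p = 0.109) and the ribosomal protein scale (-0.26, adjusted p = 0.413), with the adjusted p between 0.0156 and 0.413 in limma's test. Here 5.13% of the probe sets were lower and 3.37% higher. With these 2 groups alone in the fit 0 of the 9 genes were called, and the count was 2 without 6-month replicate 2, the array with the high Nfkbia and Tnfaip3 values, or without 18-month replicate 1. For these fits too the share of all probe sets called was not counted. From 14 to 18 months the change was broader. All 9 genes were lower at 18 than at 14 months, where 8.23% of the probe sets were lower and 4.75% higher. No arrays of these groups overlapped for any of the 9 genes, and overlap was not counted over all probe sets. Nfkbiz was at -1.68 (standard error 0.22, 3.21-fold lower, adjusted p = 7.94e-05), Tnfaip3 at -1.63, Nfkbie at -1.26, Nfkbia at -1.23, Bcl3 at -1.06, and Relb and Nfkb2 at -0.91. Rela (-0.61) and Rel (-0.57, adjusted p = 0.0325) changed least, and the Rel call was lost without 14-month replicate 1 or 3 or any 18-month array, and on the ribosomal protein scale (-0.47).

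**Figure D3:**
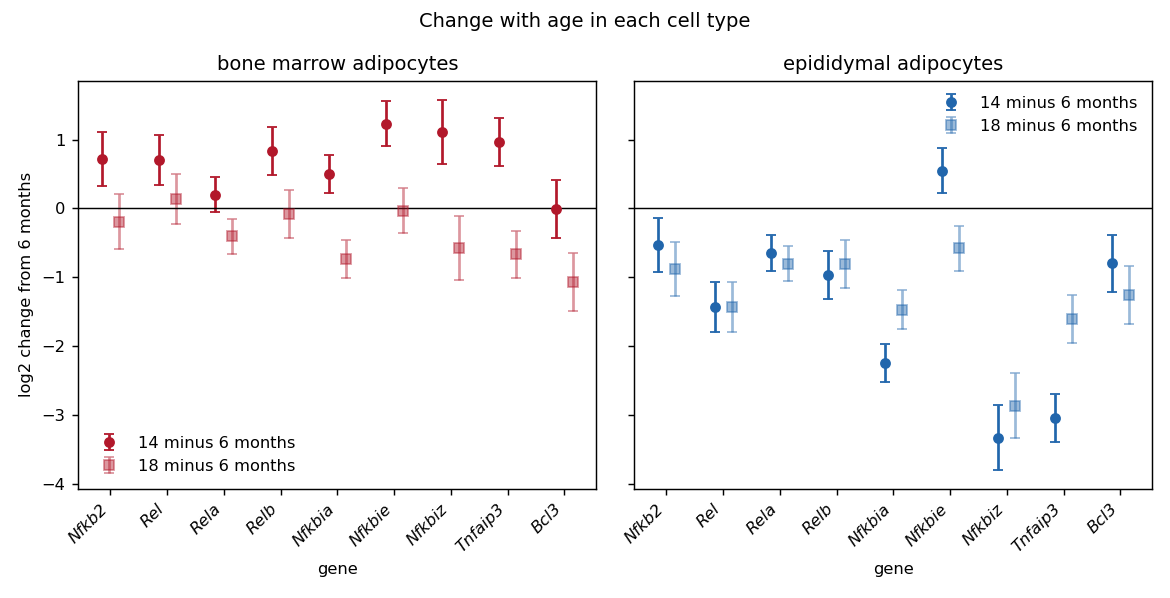
Log2 change from 6 months (y axis) of each gene (x axis) in bone marrow adipocytes (left panel) and epididymal adipocytes (right panel), with 95% confidence intervals from the limma fit. Circles are 14 months and squares 18 months, and in the epididymal panel the changes reach -3.33 for Nfkbiz while the bone marrow changes stay between -1.07 and 1.23.

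The difference of the age changes was tested as an interaction, bone marrow change minus epididymal change. From 6 to 14 months it was called for 7 of 9 genes, each time with the bone marrow change the higher, where 5.07% of the probe sets were called higher and 6.53% lower. Nfkbiz gave 4.44 (standard error 0.32, adjusted p = 3.56e-08), Tnfaip3 4.0 (standard error 0.23, adjusted p = 2.86e-09) and Nfkbia 2.74 (standard error 0.19, adjusted p = 2.48e-08). All 4 measured subunits were among the called genes, with Rel at 2.13, Relb at 1.81, Nfkb2 at 1.25 and Rela at 0.85. Bcl3 (0.79, adjusted p = 0.0790) and Nfkbie (0.68, adjusted p = 0.0522) did not pass. From 6 to 18 months Nfkbiz (2.29), Rel (1.56), Tnfaip3 (0.94) and Nfkbia (0.74) were called higher, where 3.49% of the probe sets were higher and 5.02% lower. This count of 4 was 2 without 18-month bone marrow replicate 3 or 18-month epididymal replicate 2, since Nfkbia and Tnfaip3 then missed the threshold, and 7 without 6-month bone marrow replicate 3. The comparisons share their 6-month arrays, and none of them is independent of the others.

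The genes ran together over the 18 arrays once the mean of each cell type had been subtracted. Over the 36 pairs of members Pearson's r ran between 0.09 and 0.98 with a median of 0.76, as a description over arrays that share their groups. Nfkbia and Tnfaip3 had the highest r, 0.98, and Nfkbia with Nfkbiz had 0.96. Nfkbie ran least with the others, with an r of 0.09 with Tnfaip3 and 0.13 with Nfkbia. Over the 9 bone marrow arrays alone the pairs had r of 0.37 to 0.98 (median 0.77), and over the 9 epididymal arrays -0.43 to 0.99 (median 0.86). Among all genes the closest to Nfkbiz was Zc3h12a (0.97), which encodes the RNase Regnase-1, the closest to Rel was Map2k3 (0.96), a kinase of the p38 pathway, and the closest to Nfkbie was Snx8 (0.96). Nfkb2 was closest to Tlr2 (0.93), a receptor for bacterial lipoproteins, and Relb to Lonrf1 (0.94). Outside the members, Cpeb2 was the closest to both Nfkbia (0.97) and Tnfaip3 (0.96). Bcl3 was closest to Zbtb21 (0.93) and Rela to Ubald1 (0.92). How high r runs between other pairs of genes is not given here, so these values only describe likeness.

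**Figure D4:**
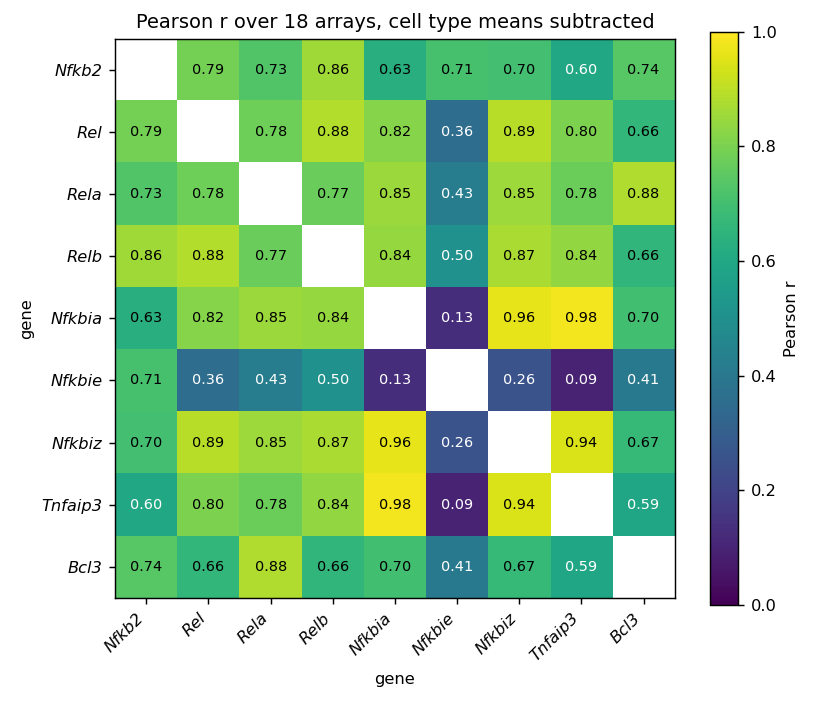
Pearson's r between each pair of the 9 genes (both axes) over the 18 arrays after subtraction of the mean of each cell type, on a color scale of 0 to 1. Nfkbia, Tnfaip3 and Nfkbiz form the brightest block, up to 0.98, and Nfkbie has the darkest cells, down to 0.09 with Tnfaip3.

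The rest of the pathway was described from lists of genes drawn from general knowledge, ordered from the receptors to the targets. The lists too were drawn up with earlier results of these data known, so their counts are a description. Over all probe sets 10.2% were called higher and 11.6% lower in bone marrow over the ages. In epididymal adipocytes 10.2% were higher and 7.51% lower at 14 than at 6 months. Of 9 receptor genes, 4 were higher and 1 lower in bone marrow over the ages, led by Tlr2 (2.82) and the TNF receptor Tnfrsf1b (2.61), with Ltbr, the lymphotoxin receptor that feeds the non-canonical branch, at -1.41. Of 10 genes listed as IkB kinases and upstream kinases, 3 were higher and none lower. They were Irak3 (1.21), Map3k8 (1.05) and the NF-kB-inducing kinase Map3k14 (1.04). Irak3 belongs to a kinase family, but its protein restrains Toll-like receptor signals. In epididymal adipocytes of 14 months Map3k8 was lower (-1.09) and Ikbke (0.66) and Ikbkb (0.46) higher than at 6 months. Among 17 adaptors and ubiquitin ligases Traf1 and Bcl10 (both 1.54) and Birc3 (1.40) were higher in bone marrow, and in epididymal adipocytes 4 were lower and 3 higher at 14 than at 6 months, with Birc2 at -1.38 and Birc3 at -1.03. The median change of the 9 NF-kB genes in that epididymal comparison was -0.97, against 0.17 for the receptors, -0.18 for the kinases, 0.09 for the adaptors and -0.04 for all probe sets.

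Of the 3 other IkB genes, Nfkbid, whose protein IkBNS is another nuclear member of the family, was 3.91 higher in bone marrow over the ages (adjusted p = 1.45e-17). In bone marrow it rose by 1.10 at 14 months against 6 months and was lower at 18 than at 14 months (-1.92). Among 14 other negative regulators 2 were higher in bone marrow, N4bp1 (1.35) and Zc3h12a (1.08), and the ubiquitin ligase Rnf11 was lower (-1.15). These counts were near the shares of all probe sets, 10.2% higher and 11.6% lower. Zc3h12a fell in epididymal adipocytes at 14 months (-1.68) and at 18 months (-1.69), and Tnip1, a partner of A20, fell at 14 months (-0.73). In all, 3 of these 14 genes fell and none rose in epididymal adipocytes at 14 months. Of all probe sets 7.51% fell and 10.2% rose there.

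Of 30 known NF-kB target genes 29 were measured, and in bone marrow 15 were higher and 4 lower over the ages (median 1.06). The shares of all probe sets were 10.2% higher and 11.6% lower. Il1b, the cytokine interleukin-1 beta, was 6.49 higher, the chemokine Ccl3 4.91 and the prostaglandin synthase Ptgs2 4.33, and Lcn2, also a granule protein of neutrophils, 4.34. At 6 months 12 targets were higher and 6 lower in bone marrow, among the lower ones the chemokines Cxcl1 (-4.45) and Cxcl10 (-3.71). At that age 11.4% of all probe sets were higher and 11.8% lower. Within epididymal adipocytes 16 targets fell and 3 rose at 14 months, and 20 fell and none rose at 18 months. Of all probe sets 7.51% fell and 10.2% rose at 14 months, and 8.01% fell and 8.22% rose at 18 months. The largest 14-month changes were those of Cxcl2 (-5.30), Cxcl10 (-5.08), Cxcl1 (-4.76) and the cytokine Il6 (-4.36). From 14 to 18 months 10 epididymal targets rose and 9 fell, with Cxcl10 at 4.03 and Cxcl1 at 2.88. The shares of all probe sets there were 11.7% higher and 12.5% lower. In bone marrow 6 rose and 1 fell at 14 months, where 5.08% of all probe sets rose and 3.58% fell. At 18 against 14 months 13 were lower and none higher, with Csf1 at -2.0 and Tnf at -1.80. In that comparison 8.23% of all probe sets were lower and 4.75% higher.

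Genes outside the pathway moved beside the NF-kB genes. Of 21 immediate early genes, which cells switch on within minutes of growth factors or stress, 17 fell in epididymal adipocytes at 14 months. At 18 months 15 fell, and none rose at either age. Of all probe sets 7.51% fell at 14 months and 8.01% at 18 months. The mean level of the immediate early genes on an array was 10.08 to 10.12 at 6 months, 7.67 to 8.17 at 14 months and 8.59 to 8.64 at 18 months. Nfkbia and Tnfaip3 also stood in this order. In bone marrow the mean level was 9.08, 10.47 and 9.18 on the 6-month arrays, 10.00 to 10.17 at 14 months and 8.96 to 9.17 at 18 months. There 14 of the 21 genes were lower at 18 than at 14 months, against 8.23% of all probe sets. The 6-month bone marrow array at 10.47 is replicate 2, the one with high Nfkbia, Tnfaip3 and Nfkbiz values. On that array Nfkb2 (8.80), Rel (10.10) and Bcl3 (8.22) were the lowest of the group, and Rela, Relb and Nfkbie lay in the middle. The part of this early response in the values of the NF-kB genes was not tested.

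Macrophage and monocyte markers moved against most of the NF-kB genes in epididymal adipocytes at 14 months and with them at 18 months. All 10 measured markers rose at 14 months (median 2.42), with C1qc, a complement gene of macrophages, at 2.70, and 7 fell at 18 months (median -1.40), when all 9 NF-kB genes were also lower than at 6 months. Their mean level was 7.52 to 7.96 at 6 months, 9.86 to 10.39 at 14 months and 6.43 to 6.54 at 18 months. Of all probe sets 10.2% rose at 14 months and 8.01% fell at 18 months. The epididymal group with the highest macrophage markers was therefore the one with the lowest Nfkbia, Tnfaip3 and Nfkbiz and the highest Nfkbie values. At 14 months 3 of the 10 markers were higher and 1 lower in bone marrow, where the mean level was 10.13 to 10.52, against 9.86 to 10.39 in epididymal adipocytes. Between the cell types at that age 9.91% of all probe sets were higher and 11.5% lower in bone marrow. In bone marrow 4 markers and 7 of 9 B lineage markers rose at 14 months, when 7 NF-kB genes also rose. At 18 against 14 months 8 of the 9 B lineage markers were lower. In these comparisons 5.08% of all probe sets rose and 8.23% were lower, in that order. The B lineage mean in bone marrow was 7.82 to 8.02 at 6 months, 8.84 to 9.17 at 14 months and 7.68 to 8.11 at 18 months. In epididymal adipocytes it was 5.73 to 5.97, 6.43 to 6.75 and 5.64 to 5.72 at these ages. It was thus highest there too at 14 months, when most of the NF-kB genes were lower than at 6 months. The part of these cells in the values of the NF-kB genes was not tested.

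Markers of the cells of the fat stroma moved as well. In epididymal adipocytes 7 of 8 fibroblast and progenitor markers rose at 14 months, with means on an array of 9.24 to 9.42 at 6 months, 10.70 to 11.14 at 14 months and 9.20 to 9.25 at 18 months. Of 7 endothelial markers 4 rose there at 14 months and 5 fell at 18 months, both against 6 months, with means of 8.23 to 8.39, 9.15 to 9.39 and 7.30 to 7.44 at 6, 14 and 18 months. The T and NK cell means were 4.62 to 4.73, 5.30 to 5.72 and 4.44 to 4.51 at these ages, and 3 of 7 markers rose at 14 months. For all 3 lists the 14-month epididymal arrays thus lay above those of the other ages. In bone marrow 4 endothelial markers fell at 14 months, with means of 7.22 to 7.43 at 6 months, 6.13 to 6.99 at 14 months and 6.31 to 6.61 at 18 months, and 2 fibroblast markers fell while 3 T and NK cell markers rose. The part of these cells too was not tested.

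**Figure D5:**
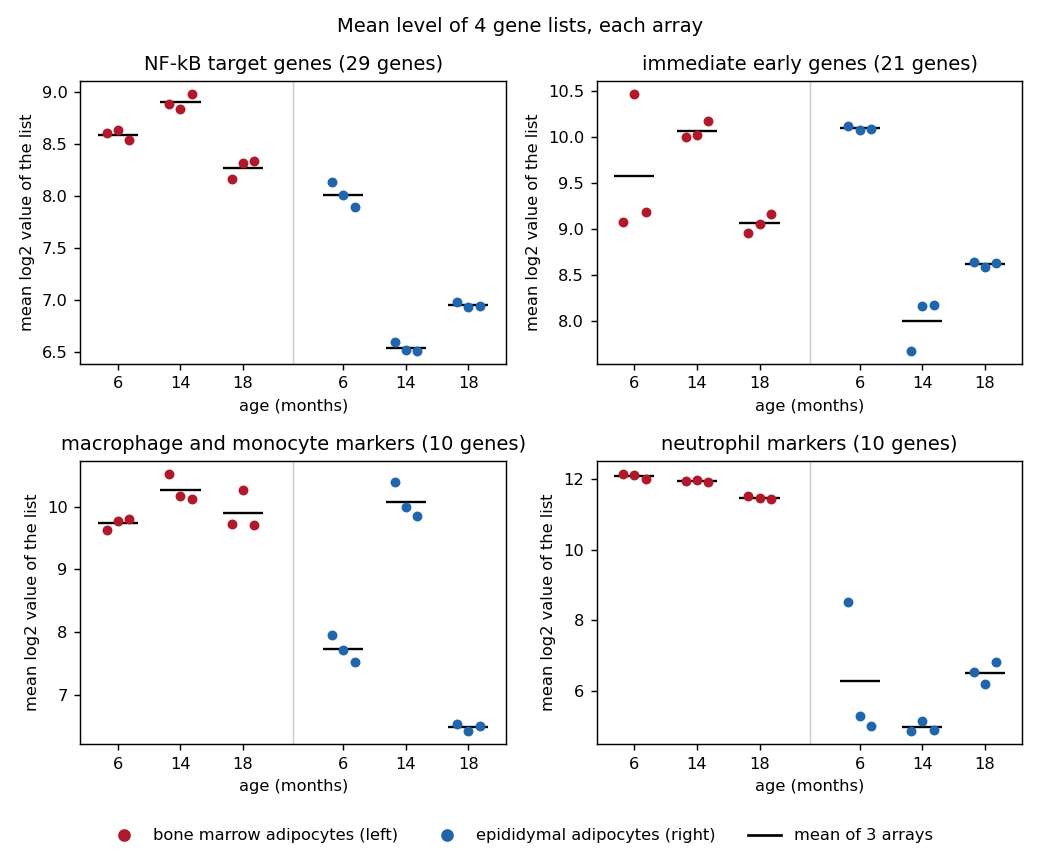
Mean log2 value (y axis) of 4 gene lists on each array, by age in months (x axis), with bone marrow adipocytes left of the line and epididymal adipocytes right of it, and black bars at the means of 3 arrays. In epididymal adipocytes the NF-kB targets and the immediate early genes are lowest at 14 months, where the macrophage and monocyte markers are highest (9.86 to 10.39), and 1 of the 6-month epididymal arrays stands above the others in neutrophil markers (8.53).

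All 10 neutrophil markers were higher in bone marrow at every age. At 14 months against 6 months 0 of the 10 were called in bone marrow, with a median change of -0.17, while the median change of the 9 NF-kB genes was 0.72. At 18 months against 14 months, when all 9 NF-kB genes were lower, 1 neutrophil marker was called lower, with a median change of -0.30. Of all probe sets 5.08% were higher and 3.58% lower at 14 against 6 months, and 8.23% lower at 18 against 14 months. The marker means in bone marrow were 12.01 to 12.15 at 6 months, 11.92 to 11.98 at 14 months and 11.46 to 11.53 at 18 months, with no overlap between the ages. In epididymal adipocytes 3 neutrophil markers fell at 14 months (median -1.34) and 0 were called at 18 months (median -0.06), both against 6 months. At 18 against 14 months 5 rose (median 1.43), as Nfkbia and Tnfaip3 did. Among all probe sets 7.51% fell at 14 against 6 months and 11.7% rose at 18 against 14 months. The 6-month epididymal arrays had neutrophil marker means of 8.53, 5.29 and 4.99, against 4.85 to 5.13 at 14 months and 6.19 to 6.80 at 18 months. The array at 8.53 moved the medians of both comparisons with 6 months, and the calls mainly at 18 months. Without it, a choice made after seeing the data, 2 markers fell at 14 months with a median of -0.15, 8 rose at 18 months with a median of 1.06, and 8 rose at 18 against 14 months. The array at 8.53 had 11.16 for Nfkbia, 10.06 for Tnfaip3 and 10.26 for Nfkbiz, the lowest of its group for each of the 3 genes. Nfkb2 (8.90) and Relb (7.75) were also lowest on it, Nfkbie (6.20) was highest, and Rel, Rela and Bcl3 lay between. Without that array, 7 NF-kB genes fell in epididymal adipocytes at 14 months. The part of neutrophils in the values of the NF-kB genes was not tested.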

How the data were processed

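RNA of 18 arrays, 3 for each of 6 groups of cell type and age, was labelled and hybridized to Affymetrix Mouse Gene arrays. The log2 values per probe set were used as deposited by the authors and were not normalized again. For them the paper's methods name gcRMA and quantile normalization in Partek, and a caption of its supplement names RMA. Arrays still differed by up to 0.58 at one rank. Groups were taken from the sample labels, and the label peripheral was read as the epididymal fat of the methods.

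A mean for each of the 6 groups was fitted to the 18 arrays (limma 3.58.1 in R 4.3.3) over the 23410 of 35556 probe sets with a named gene, and p was adjusted within each comparison by Benjamini and Hochberg. Calls between cell types needed an adjusted p under 0.05 and 2-fold, and calls between ages or of interactions an adjusted p under 0.05. The fit was tested on simulated data. The same animals gave both preparations, but no source ties an array to a pool. Same-numbered arrays of the cell types did not deviate together (r -0.14 to 0.15 in 9 pairs), so no replicate block was used, and comparisons of the cell types do not account for shared animals.

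The 10 members and all gene lists were chosen with earlier results of these data known. All members are named, with at most 4 called genes of each other list in a comparison (largest change) and at most 3 genes most like a member. Promoters were searched and figures drawn with Python 3.11.15. Alternatives changed the probe sets, test, scaling, groups, limits and arrays. Depth does not apply to arrays, and their number limits the precision.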

Additional observations from a re-analysis of the deposited data

Results flagged for a closer look

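The change with age of 7 members differed between bone marrow and epididymal adipocytes from 6 to 14 months (limma interaction, adjusted over 23410 probe sets, bone marrow change minus epididymal change, 3 arrays per group). The difference was 4.44 for Nfkbiz (adjusted p = 3.56e-08), 4.0 for Tnfaip3 (adjusted p = 2.86e-09) and 2.74 for Nfkbia (adjusted p = 2.48e-08). Among the subunits it was 2.13 for Rel, 1.81 for Relb, 1.25 for Nfkb2 and 0.85 for Rela (adjusted p = 0.00266). For all 7 the bone marrow arrays had a higher mean at 14 than at 6 months and the epididymal arrays a lower one.

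From 6 to 18 months the difference was 2.29 for Nfkbiz (adjusted p = 1.93e-04), 1.56 for Rel (adjusted p = 6.20e-04), 0.94 for Tnfaip3 (adjusted p = 0.0177) and 0.74 for Nfkbia (adjusted p = 0.0214). Of these, Rel had a higher mean in bone marrow at 18 than at 6 months, and the other 3 genes had lower means in both cell types, with the larger fall in epididymal adipocytes.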

How the results depend on the processing

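No value of a member that was called changed direction under any alternative, while some values that were not called did, at 6 months on the ribosomal protein scale among them. Of the single-gene results 3276 held, 57 gained a call and 114 lost one. The share of all probe sets called was not counted under the alternatives. Fewer calls of members thus cannot be told apart from fewer calls over all probe sets. Scaled to 215 ribosomal protein probe sets, which moved the median of all probe sets to -0.95 at 6 months, -0.61 at 14 months and -0.67 at 18 months between cell types, 1 member was called higher in bone marrow at 6 months, 5 at 14 months and 3 at 18 months, and 2 were lower in bone marrow at 18 than at 6 months. Median centring moved the median of all probe sets between 18 and 14 months in epididymal adipocytes to 0.25. With the compared groups alone in the fit, 1 member was higher in bone marrow at 14 than at 6 months and 0 were lower at 18 than at 6 months. An adjusted p under 0.01 left 4 and 2 of these, and 2 interactions at 18 months. Without a fold limit 9 members were higher in bone marrow over the ages and 4 at 6 months. With 2-fold asked of ages too, 4 and 5 members were lower in epididymal adipocytes at 14 and 18 months, 1 was higher there at 18 than at 14 months, 2 were higher in bone marrow at 14 months, 1 was lower at 18 than at 6 months and 5 lower at 18 than at 14 months, and 2 interactions remained in number at 18 months. A replicate block gave 8 members lower in epididymal adipocytes at 14 months (7 without it) and 3 lower in bone marrow at 18 months (4 without it), and moved no count by over 1.5 times.

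Leaving out 1 array at a time gave 5 to 6 members higher in bone marrow over the ages, 2 at 6 months, 8 at 14 months and 4 to 5 at 18 months. In epididymal adipocytes 7 to 8 were lower at 14 months, 8 to 9 lower at 18 months and 2 to 3 higher at 18 than at 14 months. In bone marrow 4 to 7 were higher at 14 months, 2 to 4 lower at 18 than at 6 months and 8 to 9 lower at 18 than at 14 months. The interaction was called for 7 to 8 members at 14 months and 2 to 7 at 18 months. The arrays that moved a count by over 1.5 times are named beside the results. A fit of the compared groups alone does not apply over the ages, where all groups are compared.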
